A study of Homo sapiens with 12 samples.

Results

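Classical cadherins and the catenins bound to them form the adherens junction, and 9 of their genes were examined in 3 prostate cell lines. The genes were the 4 classical cadherins CDH1, CDH2, CDH3 and CDH11 and the 5 catenin genes CTNNA1, CTNNA2, CTNNAL1, CTNNB1 and CTNND1. They were taken by gene name from a table of 58302 genes, and each name matched a single row. PC3 and DU145 are established lines of prostate cancer (PCa), and BPH-1 is an immortalised epithelial line from benign prostate. Each line had 4 libraries of total RNA, was given as WT and grew untreated in DMEM with fetal bovine serum and antibiotics, so the lines themselves are the only condition. Each line comes from 1 person, and the labels do not say whether its 4 libraries came from separate cultures. The p-values therefore measure the spread between these libraries, which may be technical, and a difference between lines cannot be told apart from a difference between the people they came from.

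A classical cadherin reaches out of the cell and binds cadherins of the neighbouring cell in the presence of calcium. Inside the cell its tail is held by p120-catenin (CTNND1), which keeps the cadherin at the surface, and by beta-catenin (CTNNB1), which also acts in the nucleus as the effector of WNT signalling. Beta-catenin binds alpha-catenin (CTNNA1), which links the complex to actin. E-cadherin (CDH1) and P-cadherin (CDH3) are typical of epithelia, with P-cadherin marking basal prostate cells, whereas N-cadherin (CDH2) and cadherin-11 (CDH11) are typical of nerve, mesenchyme and bone-forming cells. A switch from E-cadherin to N-cadherin is a well known feature of carcinoma cells that take on mesenchymal traits.

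The lines differed in which cadherins they expressed and in how much alpha-catenin RNA they held. BPH-1 expressed CDH3 and CDH1 with a little CDH2, PC3 expressed CDH2 and CDH11, and DU145 expressed little of any of the 4. CTNNA1 was highest in DU145 and near 0 in PC3, whereas CTNNB1 and CTNND1 stayed within a few FPKM of each other in BPH-1 and PC3 and were lower in DU145. Levels are given in FPKM, the reads on a gene divided by its length and by the reads of the library. The libraries held 12950665 to 16309559 reads, as recovered from the steps between the lowest values.

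**Figure D1:**
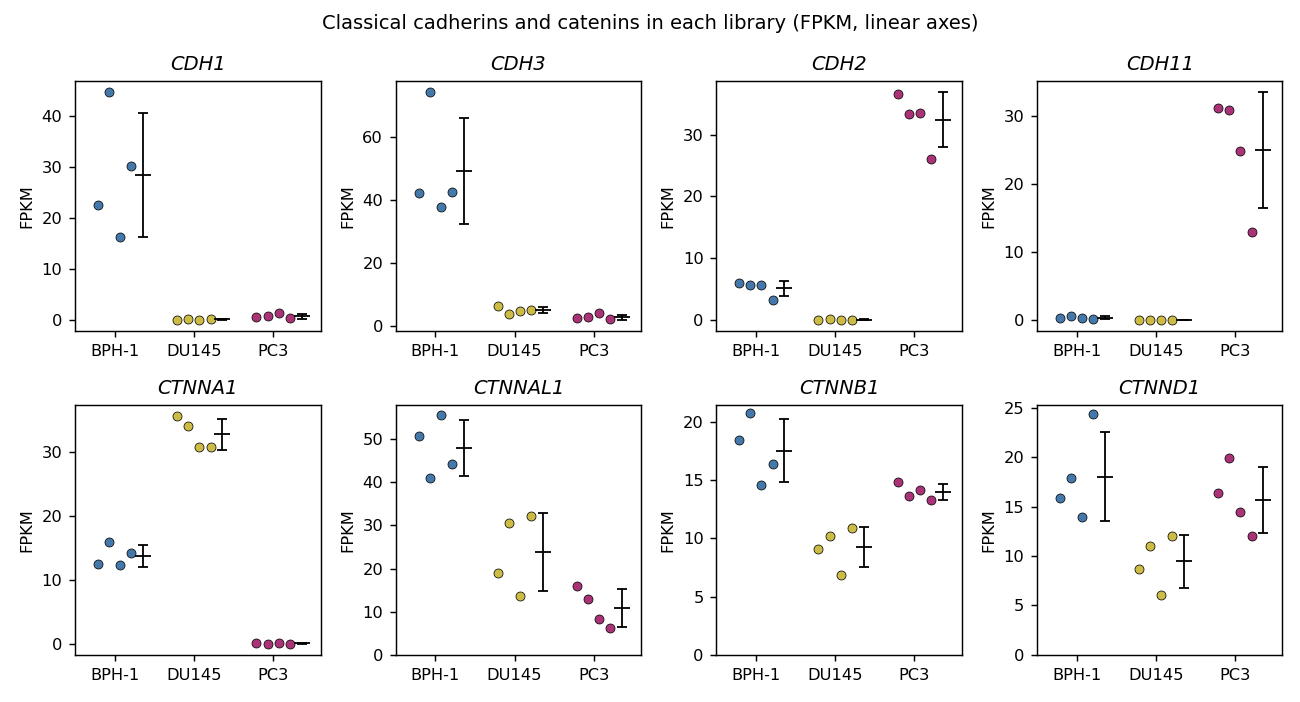
FPKM (vertical, linear axes from 0) of 8 members in each library of BPH-1, DU145 and PC3. Points are the 4 libraries of a line in order of their number, and the bar beside them is the mean with its SD. CDH2 and CDH11 stand high in PC3, CDH1 and CDH3 in BPH-1, and CTNNA1 in DU145, with PC3 at a mean of 0.0495.

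The labels call all lines prostate, and 5 of 5 epithelial markers exceeded 3 reads in at least 1 library of every line. KRT5, a basal keratin, did so in PC3 with only 4 reads, and averaged 147 in BPH-1, 0.216 in DU145 and 0.0118 in PC3. Their summed FPKM was 256 to 346 in BPH-1, 84.3 to 163 in DU145 and 219 to 366 in PC3, where KRT19, at a mean of 232, gave most of it. KRT8 and KRT18, keratins of simple epithelium, were present throughout, but EPCAM, an epithelial adhesion molecule, averaged 60.8 in BPH-1, 9.10 in PC3 and only 0.376 in DU145. With CDH1 also near 0 there, the DU145 values describe the libraries labelled DU145, and the identity of the line was not tested. Of the prostate luminal markers, KLK3 had 0 reads in all 12 libraries. Fibroblast markers summed to 1.98 to 3.73 in BPH-1, 0.660 to 1.88 in DU145 and 3.10 to 3.98 in PC3. Most of that was COL1A1 in BPH-1 and PC3, and the fibroblast gene DCN had 0 reads in both of those lines. LUM had 0 reads in PC3, but in BPH-1 it was 0, 0.273, 0 and 0.241 in replicates 1 to 4, with up to 20 reads. PDGFRB averaged 0.316 in BPH-1, 0.439 in DU145 and 0.0501 in PC3. In DU145, DCN was 0 in replicates 1 and 2 and 0.373 and 0.214 in replicates 3 and 4, and COL1A2 was 0, 0, 0.133 and 0.135. The endothelial markers summed to at most 3.57, in PC3. There PECAM1 averaged 1.68 and KDR 0.712, against 0.152 and 0.00943 in BPH-1, while VWF and CDH5 were lower in PC3 (0.00585 and 0.00175) than in BPH-1 (0.0844 and 0.134). Of the leukocyte markers, CD3E had 0 reads in every library. Leukocyte sums were 4.83 to 8.11 in BPH-1, 5.06 to 9.95 in DU145 and 6.86 to 13.5 in PC3, mostly CD68. PTPRC, the pan-leukocyte CD45, averaged 1.35 in BPH-1 and had 0 reads in PC3, and in DU145 it was 1.35, 1.25, 0 and 0. The DU145 libraries thus fell into replicates 1 and 2 and replicates 3 and 4 for DCN, COL1A2, PTPRC and PECAM1 (0.198, 0.224, 0 and 0). They fell into other pairs for the junction scaffold TJP1, which was 2.61 and 1.60 in replicates 1 and 3 and 19.8 and 18.9 in replicates 2 and 4. Without any of these 4 pairs, CDH1, CDH2, CDH3, CTNNA1, CTNNAL1, CTNNB1 and CTNND1 were still called in DU145 against BPH-1, as were CDH2, CDH11, CTNNA1 and CTNNB1 in PC3 against DU145. The call of CDH11 in DU145 against BPH-1 was lost without replicates 1 and 2 or 1 and 3 (adjusted p = 0.0747 and 0.0693, limma), and those of CDH1, CDH3, CTNNAL1 and CTNND1 in PC3 against DU145 were each lost without at least 1 pair. The part of this split in the results beyond these values was not tested. In such bulk RNA, fewer cells with a transcript and less transcript per cell cannot be told apart.

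CDH1 (ENSG00000039068, chromosome 16, 68737225 to 68835548, plus strand, GRCh38) encodes E-cadherin. Its FPKM in the 4 BPH-1 libraries was 22.6, 44.6, 16.3 and 30.2. In DU145 it was 0.128, 0.297, 0.0851 and 0.211, and in PC3 it was 0.555, 0.746, 1.42 and 0.427. The lines did not overlap, with BPH-1 highest, PC3 far lower and DU145 lowest. By the means, CDH1 was 158-fold lower in DU145 and 36.2-fold lower in PC3 than in BPH-1, and even the closest libraries were 55.1-fold and 11.5-fold apart, or 21.9-fold for PC3 without its replicate 3. On the scale of log2(FPKM + 1), which shrinks changes of weakly expressed genes, the difference was -4.55 for DU145 (standard error 0.270, limma adjusted p = 8.86e-07) and -3.98 for PC3 (standard error 0.287, limma adjusted p = 2.81e-06). The low level in PC3 was still 4.36-fold above that in DU145, with a log2 difference of 0.57 (limma adjusted p = 0.0125). That call was lost, at an adjusted p of 0.0827, when 1 spread was shared by all 3 lines. DU145 had 19 to 70 reads of CDH1 in a library and PC3 had 80 to 284, so both were detected.

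CDH3 (ENSG00000062038, chromosome 16, 68636189 to 68722616, plus strand) encodes P-cadherin and ends 14.6 kb before CDH1 begins. Its FPKM was 42.3, 74.2, 37.8 and 42.5 in BPH-1. The level was 6.34, 3.95, 4.89 and 5.26 in DU145, and 2.45, 2.76, 4.04 and 2.101 in PC3. BPH-1 stood above the PCa lines in every library, 9.63-fold above DU145 and 17.3-fold above PC3 by the means, and the lines' log2 differences were -3.00 (limma adjusted p = 3.98e-06) and -3.68 (limma adjusted p = 1.05e-06). PC3 and DU145 overlapped, since PC3 replicate 3 was above DU145 replicate 2, and their 1.801-fold difference of means did not separate them in an exact permutation test (two-sided, p = 0.0571). With limma the same pair had a log2 difference of -0.68 (adjusted p = 0.0181), a call that was lost without DU145 replicate 1 (-0.59) or without PC3 replicate 1 (-0.64). The neighbouring genes did not all follow CDH1 and CDH3: TANGO6, 8.06 kb beyond CDH1, averaged 2.46 in BPH-1, 3.90 in DU145 and 4.22 in PC3, and HAS3, a hyaluronan synthase 270 kb beyond it, averaged 5.16, 1.96 and 105 in the same order. A ferritin pseudogene inside CDH1, FTLP14, reached at most 13 reads in a library.

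CDH2 (ENSG00000170558, chromosome 18, 27950966 to 28177446, minus strand) encodes N-cadherin. Its FPKM was 5.96, 5.59, 5.65 and 3.20 in BPH-1, and 36.7, 33.3, 33.5 and 26.2 in PC3. DU145 had 0.00965, 0.0671, 0.0608 and 0.0583, which is 1 to 7 reads in a library. The order of PC3 over BPH-1 over DU145 held for every library. PC3 exceeded BPH-1 by 6.36-fold (log2 difference 2.47, standard error 0.180, limma adjusted p = 3.00e-06), and DU145 was 104-fold below BPH-1 by the means and 47.6-fold at the closest libraries, or 83.4-fold without BPH-1 replicate 4 (log2 difference -2.51, limma adjusted p = 2.18e-06). Set against each other, the PCa lines were 662-fold apart by the means and 390-fold apart at the closest libraries, with a log2 difference of 4.98 (standard error 0.144, limma adjusted p = 4.84e-08).

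CDH11 (ENSG00000140937, chromosome 16, 64943753 to 65126112, minus strand) encodes cadherin-11, also called OB-cadherin. The FPKM in PC3 was 31.2, 30.9, 24.9 and 12.9. BPH-1 had 0.198, 0.604, 0.218 and 0.156, and DU145 had 0, 0.00693, 0.0330 and 0.0379. PC3 was thus 84.9-fold above BPH-1 by the means and at least 21.3-fold above it between any pair of libraries, with a log2 difference of 4.26 (standard error 0.262, limma adjusted p = 1.04e-06). Without BPH-1 replicate 2, the highest of that line, these folds were 131 and 59.0, and without PC3 replicate 4, the lowest of its line, the closest libraries were 41.3-fold apart. Against DU145, with 0 to 9 reads of CDH11 in a library, the log2 difference was 4.60 (limma adjusted p = 1.77e-06). DU145 was also below BPH-1 in every library, by 15.1-fold of the means or 9.80-fold without BPH-1 replicate 2, but both levels are so low that the log2 difference was only -0.33 (limma adjusted p = 0.0106), and this call was lost with 1 spread over all lines (adjusted p = 0.228). A long noncoding RNA gene 64.9 kb away on the same strand, AC009055.2, had the same order of PC3 over the other lines, with a mean FPKM of 9.40 in PC3, 0.0217 in BPH-1 and 0.0109 in DU145.

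Summed over these 4 genes, cadherin FPKM was 83.0 ± 28.8 (SD, n = 4) in BPH-1, 61.0 ± 13.3 (SD, n = 4) in PC3 and 5.36 ± 0.904 (SD, n = 4) in DU145. The makeup of the sum differed between lines far more than between libraries of a line. CDH3 gave 59.4% ± 2.89 (SD, n = 4) of it in BPH-1 and CDH1 gave 33.6% ± 5.32 (SD, n = 4), with 6.62% from CDH2. In PC3, CDH2 gave 54.1% ± 6.05 (SD, n = 4) and CDH11 gave 39.9% ± 6.57 (SD, n = 4), and CDH1 was left with 1.28%. In DU145, 95.1% ± 2.80 (SD, n = 4) of the small sum was CDH3. These sums and shares rest on the length in the deposited values, which adds overlapping exons. On that length the sums of BPH-1 (60.0 to 125) and PC3 (41.6 to 70.8) overlapped. With merged exons they did not, at 148 ± 53.2 (SD, n = 4, 103 to 224) in BPH-1 and 81.0 ± 17.6 (SD, n = 4, 55.0 to 93.6) in PC3, and DU145 had 8.22 ± 1.33 (SD, n = 4). The shares in BPH-1 with merged exons were 50.6% for CDH3 and 44.3% for CDH1. In BPH-1 replicate 4 the order then turned, with 50.8% for CDH1 and 46.1% for CDH3.

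**Figure D2:**
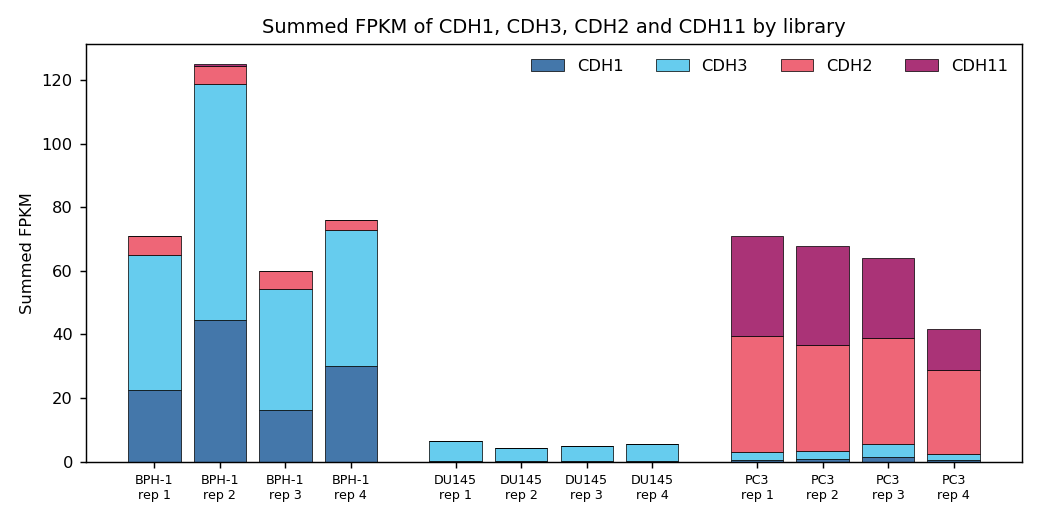
Summed FPKM of CDH1, CDH3, CDH2 and CDH11 (vertical, stacked) in each of the 12 libraries (horizontal). The DU145 sums lie between 4.32 and 6.48, almost all CDH3, while the PC3 bars are mostly CDH2 and CDH11 and the BPH-1 bars mostly CDH3 and CDH1.

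CTNNA1 (ENSG00000044115, chromosome 5, 138610967 to 138935034, plus strand) encodes alpha-E-catenin, the actin link of the complex. Its FPKM was 12.5, 16.0, 12.3 and 14.2 in BPH-1. It was 35.7, 34.1, 30.8 and 30.8 in DU145, and 0.0514, 0.0381, 0.0719 and 0.0367 in PC3. The lines did not overlap. PC3 had 10 to 21 reads of CTNNA1 in a library, against 4032 to 5142 in BPH-1 and 8688 to 12168 in DU145. That put PC3 278-fold below BPH-1 (log2 difference -3.81, standard error 0.116, limma adjusted p = 2.15e-08) and 663-fold below DU145 (log2 difference -5.01, standard error 0.125, limma adjusted p = 2.93e-08). DU145 was 2.38-fold above BPH-1 (log2 difference 1.20, limma adjusted p = 7.04e-05). Of the 16420 genes tested between the PCa lines, 0.268% lay at least as far apart as CTNNA1, whichever the direction.

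The 250 bases before an annotated start of CTNNA1 are shown because, of the members that were detected in every library, CTNNA1 had the widest difference between 2 lines. They lie at chr5:138753175-138753424 on the plus strand (RefSeq start, build GRCh38.p14), 5′ to 3′, and capitals mark GC boxes, the letters GGGCGG or CCGCCC of the opposite strand.
CTNNA1 promoter: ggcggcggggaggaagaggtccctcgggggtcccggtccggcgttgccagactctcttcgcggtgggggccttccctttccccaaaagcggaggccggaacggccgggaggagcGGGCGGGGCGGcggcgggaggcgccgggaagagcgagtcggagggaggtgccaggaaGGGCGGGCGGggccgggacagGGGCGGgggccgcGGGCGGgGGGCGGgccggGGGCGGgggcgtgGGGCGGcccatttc
The window is 80% G or C and holds 33 CpG and 9 GC boxes, some of which overlap each other. It has neither CCAAT nor ATTGG, and neither TATAAA nor TTTATA. Among 35116 promoter windows of the same length, 42.6% held a GC box, 32.0% a CCAAT box and 10.7% a TATA box, and the median window had 11 CpG and was 58% G or C. A match of letters does not show a bound site. Promoters of 5 of the 9 members were matched in the RefSeq table, namely CDH2, CTNNA1, CTNNA2, CTNNAL1 and CTNNB1.

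The genes around CTNNA1 differed in their level in PC3. SIL1, a nucleotide exchange factor of the endoplasmic reticulum whose gene lies 11.7 kb beyond CTNNA1, had a mean FPKM of 0.890 in PC3, 3.64 in BPH-1 and 8.08 in DU145. This is the order of the lines seen for CTNNA1, with a much smaller step, and the log2 difference of PC3 was -1.29 against BPH-1 (limma adjusted p = 7.71e-06) and -2.25 against DU145 (limma adjusted p = 5.05e-06). HSPA9, a mitochondrial chaperone 35.5 kb before CTNNA1, averaged 59.6 in PC3, 77.7 in BPH-1 and 213 in DU145. MATR3, an RNA-binding protein of the nuclear matrix, has a pair of entries beyond SIL1 that may share reads. Both were called lower in PC3 than in BPH-1, at 0.224 against 2.88 and at 1.77 against 10.0. In DU145 the same entries averaged 1.61 and 1.38. Only the latter was called lower in DU145 than in BPH-1 (log2 difference -2.27, limma adjusted p = 0.000153). Neither entry was called between the PCa lines. An antisense gene that begins inside the promoter window, AC034243.1, had at most 8 reads in a library, with a mean of 0.667 in PC3, 0.454 in DU145 and 0.0558 in BPH-1. LRRTM2, which lies inside CTNNA1 on the other strand, had 0 reads in all libraries.

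**Figure D3:**
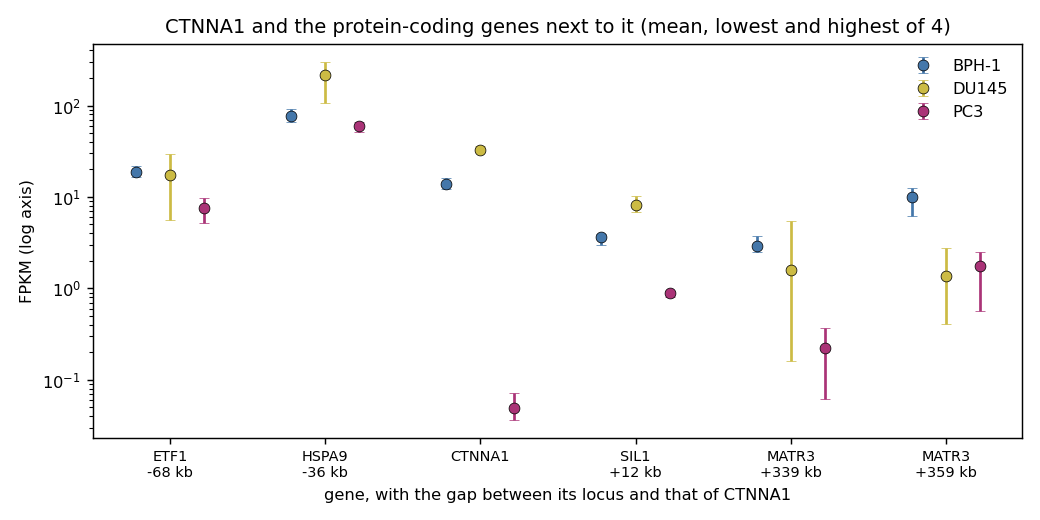
FPKM (vertical, log axis) of CTNNA1 and of the nearest protein-coding genes with a mean of at least 1 in a line, ordered along the chromosome with the gap to CTNNA1 in kb. Points are means of 4 libraries and bars run from the lowest to the highest library. MATR3 has a pair of gene identifiers that may share reads. CTNNA1 in PC3, at 0.0495, lies below the mean of each neighbour, but its libraries overlap those of the nearer MATR3 entry, at a mean of 0.224.

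CTNNA2 (ENSG00000066032, chromosome 2, 79185231 to 80648861, plus strand) encodes alpha-N-catenin, the form of the nervous system, and had 0 reads in all 12 libraries. CTNNA3, the alpha-T-catenin of heart muscle and testis, averaged 0.0964 in PC3, with at most 25 reads in a library, and at most 1 read in a library of the other lines. The 3 alpha-catenin genes together were therefore near 0 in PC3.

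CTNNAL1 (ENSG00000119326, chromosome 9, 108942569 to 109013529, minus strand) encodes alpha-catulin, a relative of alpha-catenin and vinculin. In BPH-1 its FPKM was 50.7, 41.0, 55.5 and 44.1. It was 18.9, 30.6, 13.7 and 32.2 in DU145, and 15.9, 12.9, 8.33 and 6.20 in PC3. BPH-1 was the highest in every library, 4.42-fold above PC3 (log2 difference -2.11, limma adjusted p = 5.86e-05) and 2.01-fold above DU145 (log2 difference -1.04, limma adjusted p = 0.00602). With the trend of each library on GC content removed, the difference between DU145 and BPH-1 was -0.05 and was no longer called (limma adjusted p = 0.761), while that between PC3 and BPH-1 fell to -1.16 and was still called (limma adjusted p = 0.000218). DU145 and PC3 overlapped, and their log2 difference of -1.07 (limma adjusted p = 0.0269) was lost without DU145 replicate 2 (-0.93), DU145 replicate 4 (-0.90), PC3 replicate 3 (-0.98) or PC3 replicate 4 (-0.86). FAM206A overlaps the end of CTNNAL1 on the other strand and had means of 7.26, 2.18 and 1.47 in BPH-1, DU145 and PC3, the same order. Since no source used here states whether strand was used in counting, reads of that overlap are uncertain, and their part in the result was not tested.

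CTNNB1 (ENSG00000168036, chromosome 3, 41194837 to 41260096, plus strand) encodes beta-catenin. The FPKM was 18.4, 20.8, 14.5 and 16.4 in BPH-1, 14.8, 13.6, 14.2 and 13.3 in PC3, and 9.11, 10.2, 6.89 and 10.9 in DU145. Every DU145 library was below every library of the other lines. DU145 was 1.89-fold lower than BPH-1 (log2 difference -0.86, limma adjusted p = 0.00231), and PC3 was 1.51-fold higher than DU145 (log2 difference 0.56, limma adjusted p = 0.0141). PC3 and BPH-1 overlapped, at a log2 difference of -0.30 with a 95% interval of -0.57 to -0.03, and this missed the threshold (limma adjusted p = 0.0512). It was called in the same direction when libraries were rescaled to equal sums (-0.56, limma adjusted p = 0.00280), when recovered reads were modelled (-0.32, adjusted p = 0.0417) and without BPH-1 replicate 3 (-0.38, adjusted p = 0.0197). The length behind the deposited values of CTNNB1 could not be matched to its annotation, so its FPKM is compared between lines and not with that of other genes.

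CTNND1 (ENSG00000198561, chromosome 11, 57753243 to 57819546, plus strand) encodes p120-catenin. Its FPKM was 15.9, 17.9, 14.0 and 24.4 in BPH-1, 16.4, 19.9, 14.4 and 12.0045 in PC3, and 8.73, 11.0, 6.07 and 12.1 in DU145. BPH-1 and PC3 overlapped widely, with a log2 difference of -0.18 and a 95% interval of -0.62 to 0.25 (limma adjusted p = 0.421), and the exact permutation test gave a two-sided p of 0.514. DU145 was 1.90-fold below BPH-1 (log2 difference -0.87, limma adjusted p = 0.00897). PC3 was 1.66-fold above DU145 by the means, but PC3 replicate 4 fell just below DU145 replicate 4, and the log2 difference of 0.69 (limma adjusted p = 0.0312) was lost when any of DU145 replicates 1 or 3 or PC3 replicates 1, 2 or 3 was left out (0.51 to 0.72).

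In PC3 against BPH-1, 8 members passed the filter on low reads and 6 of them were called, 2 higher (CDH2 and CDH11) and 4 lower (CDH1, CDH3, CTNNA1 and CTNNAL1). Of all 16408 genes tested in that comparison, 67.6% were called, 27.1% higher and 40.4% lower, so 6 of 8 is near the background. The same 6 members did not overlap between the lines, as 64.4% of the genes did not. In DU145 against BPH-1, all 8 members that passed were called, 1 of them higher (CTNNA1) and 7 lower. Of 17016 genes tested there, 62.7% were called, 30.3% higher and 32.4% lower. None of the 8 overlapped between those lines, where 59.5% of the genes did not. In PC3 against DU145, all 8 members that passed were called, 5 higher and 3 lower, against 48.3% of 16420 genes, 20% higher and 28.3% lower. The lines did not overlap for 5 of those 8, where 46.5% of all genes did not. With a log2 difference over 1 in size also required, 6 members in PC3 against BPH-1, 5 in DU145 against BPH-1 and 4 in PC3 against DU145 were called, where 27%, 28.8% and 19.3% of the genes were. CDH2 and CDH11 in DU145 passed the filter through the line they were compared with, so no count here is support for the members as a set. The comparisons share libraries and are not independent of each other. Where 2 lines did not overlap for a member, the exact permutation test gave a two-sided p of 0.0286, the smallest that 4 libraries against 4 allow.

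**Figure D4:**
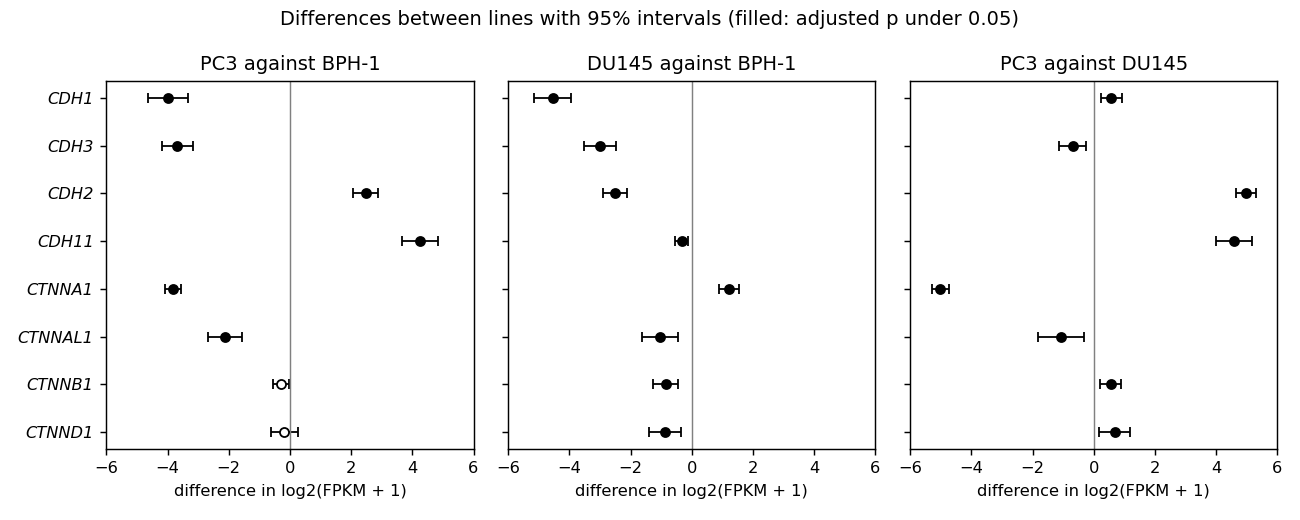
Difference in log2(FPKM + 1) (horizontal) of 8 members (vertical) in each comparison, with its 95% interval from limma on 4 libraries a line; filled points have an adjusted p under 0.05. The open points are CTNNB1 and CTNND1 in PC3 against BPH-1, and CTNNA1 lies at -3.81, 1.20 and -5.01 from left to right.

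Of 14 other classical cadherins in the table, few were expressed. CDH24 was the only one of them with a mean over 2 in any line, at 7.23 in BPH-1, 5.77 in DU145 and 5.13 in PC3, and it was called in no comparison. CDH8 was called lower in both PCa lines, at 1.01 in BPH-1, 0.000671 in DU145 and 0.0291 in PC3, and CDH4 was called lower in both from a mean of 0.297. CDH15, the muscle M-cadherin, was called higher in both, at 0.0166 in BPH-1, 0.558 in DU145 and 0.580 in PC3, and CDH7 was called higher in PC3 at a mean of 0.252. In a library, CDH4 had at most 0 reads in DU145 and 1 in PC3, and CDH8 at most 1 in DU145. CDH7 and CDH15 had at most 2 in BPH-1. In these comparisons they passed the filter through the line where they were high, so the direction of the calls was fixed in advance. CDH5, the endothelial VE-cadherin, averaged at most 0.134.

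Among the other catenins, plakoglobin (JUP), which can replace beta-catenin at the cadherin tail and also serves desmosomes, showed the widest differences. It averaged 93.0 ± 28.4 (SD, n = 4) in BPH-1, 13.6 ± 3.96 (SD, n = 4) in DU145 and 23.6 ± 5.22 (SD, n = 4) in PC3. Its log2 difference was -1.91 in PC3 (limma adjusted p = 7.91e-05) and -2.67 in DU145 (limma adjusted p = 1.83e-05) against BPH-1. Of the p120 relatives, PKP4 and ARVCF were called lower in PC3 than in BPH-1, at log2 differences of -0.57 and -0.31. CTNND2 had at most 11 reads in a library.

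Of 14 partners of the junction, 3 were called higher and 6 lower in PC3 than in BPH-1, with a median log2 difference of -0.37 over the list and -0.13 over all genes. Of all genes, 27.1% were higher and 40.4% lower, so these counts are near the background. Those that rose were vinculin (VCL), which binds alpha-catenin and actin, from 43.1 to 74.9, alpha-actinin 1 (ACTN1) from 56.0 to 106 and zyxin (ZYX) from 19.5 to 65.4. Those that fell included the nectin NECTIN4, from 8.10 to 0 reads in every PC3 library, the scaffold TJP1 from 21.7 to 4.50 and the actin-binding LIMA1 from 12.3 to 2.67. NECTIN4 passed the filter through BPH-1, so a fall was the only call open to it. ACTN4, the other alpha-actinin of the list, fell from 141 to 104. In DU145 against BPH-1, 2 rose (ZYX and SHROOM3) and 4 fell, among them NECTIN1, from 29.6 to 12.6, and NECTIN4, to 0.0984. Of all genes, 30.3% were higher and 32.4% lower in that comparison. TJP1 and LIMA1 were not called there, and both were low in DU145 replicates 1 and 3 and high in replicates 2 and 4, with LIMA1 at 3.67, 22.4, 2.83 and 17.8 in order of number. AFDN and the members CDH1, CTNNAL1, CTNNB1 and CTNND1 were also lower in replicates 1 and 3 than in replicates 2 and 4. In PC3, TJP1 was 6.40, 6.20, 4.03 and 1.35 and LIMA1 was 2.85, 3.71, 3.07 and 1.04 in order of number, both lowest in replicate 4. Between the PCa lines, 4 of 13 partners were called higher in PC3, among them VCL with a log2 difference of 1.20 (limma adjusted p = 0.0250). SHROOM3 was the 1 called lower. Of all genes, 20% were higher and 28.3% lower there. With so few partners, these counts are no support for them as a set.

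The 5 repressors of CDH1 that were examined did not move together. SNAI1 (Snail) rose from 0.489 in BPH-1 to 6.17 in DU145 and 7.64 in PC3, with log2 differences of 2.24 and 2.36 (limma adjusted p = 1.58e-05 and 0.000347). SNAI2 (Slug) fell from 65.3 to 5.50 and 8.51, at log2 differences of -3.40 and -2.82. TWIST1 followed the order of CDH2, with 9.39 in PC3, 3.53 in BPH-1 and 0.0255 in DU145, and was called in all 3 comparisons. It had at most 2 reads in a DU145 library, so DU145 could only be called the lower line. ZEB1 was called higher in both PCa lines, but its mean was at most 0.266, and ZEB2 averaged at most 0.0575. Counted together, 3 of the 5 were higher and 1 lower in PC3 than in BPH-1, and 2 were higher and 2 lower in DU145, where 67.6% and 62.7% of all genes were called in either direction. Of all genes, 27.1% were higher and 40.4% lower in PC3, and 30.3% and 32.4% in DU145.

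Of 5 factors that maintain epithelial expression, 4 fell in both PCa lines against BPH-1, where 40.4% and 32.4% of all genes fell, and the median log2 difference of the list was -2.21 in each, where all genes had -0.13 in PC3 and -0.03 in DU145. GRHL2, a transcription factor that activates CDH1, averaged 12.7 in BPH-1, 0.0147 in DU145 and 0.0201 in PC3. The splicing regulator ESRP1 averaged 11.9, 0.383 and 0.0506 in the same order, OVOL1 averaged 3.87, 0.0125 and 0.0107, and OVOL2 averaged 1.46, 0.0919 and 0.281. ELF3 was called in neither, with 5.59, 4.07 and 5.27. GRHL2 and OVOL1 had at most 4 reads in any library of the PCa lines. They passed the filter through BPH-1, so a fall was the only call open to them. The count and the median are therefore no support for the list as a set.

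**Figure D5:**
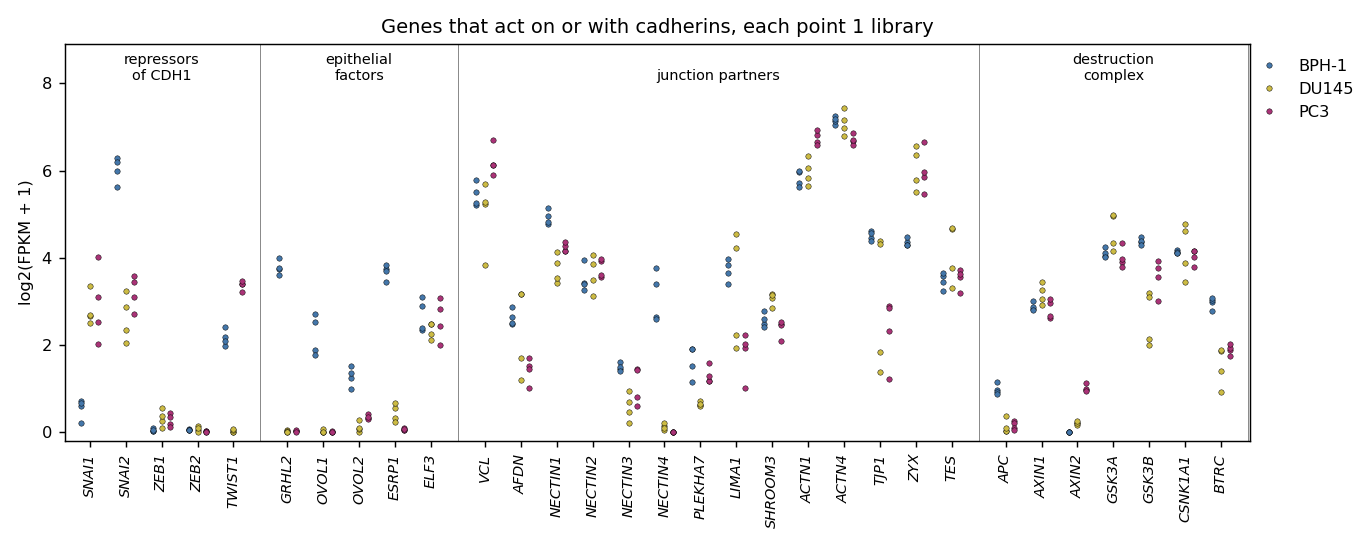
Level in log2(FPKM + 1) (vertical) of genes that repress or maintain CDH1, join the junction or degrade beta-catenin (horizontal), with each point 1 library and colours for the lines. GRHL2, OVOL1 and ESRP1 are high in BPH-1 and near 0 in the PCa lines, SNAI1 and SNAI2 move in opposite directions, and TJP1 and LIMA1 spread widely in DU145.

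Of 7 genes of the complex that marks beta-catenin for destruction, 1 was higher and 3 were lower in each PCa line against BPH-1, and these 4 of 7 are no larger a share than the 67.6% and 62.7% of all genes called. AXIN2, which is also a target of WNT signalling, rose from 0.00580 in BPH-1 to 0.157 in DU145 and 1.01 in PC3, and the fall was in APC (0.983 to 0.104 and 0.118), the kinase GSK3B (19.95 to 5.53 and 11.2) and the ubiquitin ligase subunit BTRC (6.86 to 1.97 and 2.73). Of 8 TCF/LEF factors and regulators of beta-catenin in the nucleus, 3 were higher and 1 lower in each PCa line, again no larger a share than that of all genes. LEF1 was the 1 that fell, from 0.599 to 0.00967 in DU145 and 0.00135 in PC3, and BCL9 rose in both, from 5.52 to 10.9 and 14.3. LEF1 had at most 7 reads in a DU145 library and 1 in a PC3 library, so a fall was the only call open to it. CTNNBIP1, an inhibitor that keeps beta-catenin off TCF factors, was higher in PC3 (6.29) than in BPH-1 (3.11) and DU145 (2.76). Of 5 genes that shed or turn over cadherins, the protease ADAM10 fell from 6.15 in BPH-1 to 1.74 in DU145 and 0.786 in PC3, and the E-cadherin ubiquitin ligase CBLL1 fell from 3.53 to 1.03 and 0.995. NCSTN, which encodes nicastrin, averaged 17.7 in BPH-1, 46.4 in DU145 and 15.7 in PC3.

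Genes with the closest pattern over the 12 libraries were found by the root-mean-square difference of log2(FPKM + 1), each gene centred on its own mean, among 15185 genes. STAT3 was closest to CTNNA1, at a difference of 0.249, with means of 15.4 in BPH-1, 24.2 in DU145 and 0.0416 in PC3, followed by FOXE1 and AKR1B1. SLIT2 was closest to CDH11 (0.151), with 21.1 in PC3 and at most 0.116 elsewhere, and TSPYL5, COL5A2 and SULF2 were closest to CDH2. IFI44, ST14 and SAMD9 were closest to CDH1, and IGFBP7 and ESRP1 to CDH3. For CTNNAL1 the closest genes were SMIM15, RBBP8 and TGDS, for CTNNB1 they were PCNP, RRAGC and RALB, and for CTNND1 they were CAT, ZNF652 and FRRS1. These likenesses are descriptions over libraries of only 3 lines.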

How the data were processed

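RNA-sequencing libraries of BPH-1, DU145 and PC3 (4 each) were analysed, and column names gave the line and replicate, with 0 columns left over. Per the labels, libraries were made with the NEBNext Ultra kit and the submitters' processing notes name CASAVA 1.8, HISAT2 2.1.0, edgeR and GRCh38. The counting program, the use of strand and the annotation release are not given in the sources used here. The authors deposited normalized values without naming the unit. They had the form of FPKM, and with the sum of distinct exons (GENCODE 29) as length, 92.2% to 93.8% of low protein-coding values in a library were whole reads within 0.02. The steps gave the depths. Lengths were lacking for 263 genes, which were not tested.

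Each pair of lines (8 libraries) was compared on log2(FPKM + 1) by limma 3.58.1 (R 4.3.3) with its trend option, and a gene was called at a Benjamini-Hochberg adjusted p under 0.05 over all genes tested. Genes needed 10 reads at the median depth in 4 libraries and 15 reads in all. A count model had been foreseen only for counts. FPKM sums were 246960 ± 2986 in BPH-1, 293757 ± 5858 in DU145 and 298496 ± 5975 in PC3 (SD, n = 4), and values were compared as deposited. Exact permutation tests were two-sided. The fits were tested on simulated data. Python 3.11.15 with numpy 2.4.6, pandas 2.3.3, scipy 1.17.1 and matplotlib 3.10.9 was used.

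The members and gene lists were chosen with earlier results of these data known. Named were all 9 members, from each list up to 3 called genes with the largest rise and the largest fall per comparison, genes of the complex's biology such as JUP, the 3 genes most alike to each member, and the 4 nearest expressed genes on each side. A few list genes beyond these (CDH24, ELF3, ZEB2, CTNNA3, CTNND2, NCSTN and markers) were named after their values were seen, and a few genes that the rule would name are not reported here. Alternatives covered the filter, the pseudocount (0.1), one fit over 3 lines, a replicate block, 3 scalings, a GC correction with and without the block, voom on recovered reads, a fold limit and leaving out each library or, added after seeing the data, pairs of DU145 libraries. Depth and counts of reads cover counting error only.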

Additional observations from a re-analysis of the deposited data

Results flagged for a closer look

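The check covered 27 groups of 4 libraries, each of 1 detected member or of the summed cadherins in 1 line. In 4 of them, all of single members, a library lay far from the others of its line, where chance gives about 5%. The sums are built from the members, so the groups are not independent of each other. In BPH-1, CDH2 was 3.20 FPKM in replicate 4 against 5.59 to 5.96 in the rest, CDH3 was 74.2 in replicate 2 against 37.8 to 42.5, and CDH11 was 0.604 in replicate 2 against 0.156 to 0.218. In DU145, CDH2 was 0.00965, a single read, in replicate 1 against 0.0583 to 0.0671. BPH-1 replicate 2 was also the highest BPH-1 library for CDH1 (44.6). Leaving out a library named here did not change a call of the gene it is named for.

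The PCa lines lay on opposite sides of BPH-1 for 3 members, and the direct comparison of PC3 with DU145 was called for each. The log2 difference was 4.98 for CDH2, 4.60 for CDH11 and -5.01 for CTNNA1. These differences between PC3 and DU145 kept direction and call in every alternative that was run, including each left-out library. The place of DU145 below BPH-1 was less firm for CDH11. That call was lost with one fit over 3 lines (limma adjusted p = 0.228) and without DU145 replicates 1 and 2 or 1 and 3.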

How the results depend on the processing

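Over 516 recomputed member differences, 479 kept direction and call, 33 kept direction but lost the call, 3 gained it and 1 turned. The turn was CTNND1 in PC3 against BPH-1 with upper-quartile scaling, to 0.00081, which was called on neither scale. With a log2 difference over 1 also required, 5 members were called in DU145 against BPH-1 and 4 in PC3 against DU145, and of all genes 4429 in PC3 and 4894 in DU145 against BPH-1, and 3177 between the PCa lines. Replicate numbers did not pair the libraries: 2 of 12 same-numbered pairs of libraries correlated over 0.1 (range -0.65 to 0.51) and 0 libraries were closest to their own number in both other lines. Pairs of other numbers ranged from -0.66 to 0.70. PC3 replicate 4 correlated with DU145 replicates 1 and 3 at 0.61 and 0.70, and PC3 replicate 1 with DU145 replicates 2 and 4 at 0.55 and 0.44. The split of DU145 thus ran along differences also present between PC3 libraries, and its cause was not tested. With a replicate block, 5 members were called in PC3 against DU145, without CDH3, CTNNB1 and CTNND1, and no member call changed in the other comparisons. With 1 library left out, 6 to 7 members were called in PC3 against BPH-1, 8 in DU145 against BPH-1 and 6 to 7 in PC3 against DU145. Without DU145 replicates 1 and 2, 4 members were called in PC3 against DU145, and 5 without replicates 3 and 4 or without replicates 1 and 3, pairs left out after seeing the data. With no filter, CTNNAL1 and CTNND1 were not called in PC3 against DU145 (adjusted p = 0.0562 and 0.0556, limma). Equal sums moved the median log2 difference of all genes from -0.13 to -0.28 in PC3 and from -0.03 to -0.16 in DU145 against BPH-1. With merged exons, an alternative chosen after seeing the data, CDH1 was 2.26% of cadherin FPKM in PC3. Called genes of the lists kept their direction under each scaling, the GC correction and voom, though counts in some lists moved by 1 to 3 genes. The causes were not tested. CDH2 and CDH11 in DU145 rest on 0 to 9 reads, and the PC3 level of CTNNA1 on 10 to 21.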
